A study of Mus musculus with 14 samples.

Results

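The epidermal growth factor (EGF) receptor family and its ligands were followed in tumours of mice deficient in HIF-2α and of control mice. The genes were the ligands Ereg, Areg, Hbegf, Btc, Tgfa and Egf, the receptors Egfr, Erbb2 and Erbb3, and the feedback inhibitor Errfi1. Every Affymetrix probeset whose single platform symbol was one of these 10 genes was taken, which gave 19 of 22690 probesets for 9 genes. No probeset used here carried the symbol of Areg alone, and Areg was not analysed here. The deficient group had 7 arrays from mice that the labels call both Hif2alpha deficient and a knockdown, and the control group had 7 arrays from control mice. Arrays are called by group and replicate number, such as deficient 1. Both groups were on a mixed 129 SvJ/C57Bl6 background. The tumours are understood to be of the lung, but neither the organ, the age of the mice nor the way HIF-2α was removed is given in the labels.

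Receptors of this family are tyrosine kinases of the cell surface that pair up when a ligand binds and signal to the kinase ERK and through PI3 kinase to AKT. The ligands are made as membrane-bound precursors and are cut free by metalloproteases of the ADAM family. In the lung the family acts in the growth and repair of the epithelium, and activated EGFR is a known driver of lung adenocarcinoma. Transcription of Ereg, Areg, Hbegf and Errfi1 is itself known to go up when ERK is active. HIF-2α is an oxygen-regulated transcription factor, and TGFA is a known target of it in human renal carcinoma cells.

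Levels below are log2 values made by the authors with GCRMA, on which a difference of 1 is a doubling. Values under 4 lie at or near the background that GCRMA sets, so a low value is a bound and a difference against it depends on that background. A probeset was tested if it was above 4 in at least 7 of the 14 arrays. A test means limma on all 12701 such probesets, with Benjamini-Hochberg adjustment over all of them and a threshold of 0.05. Of the 19 probesets 11, for 8 genes, passed this filter. The other 8 comprised the single Egf probeset, 2 of Tgfa, 4 of Egfr and 1 of Erbb3. Apart from Egf, these lay between 2.14 and 2.16 in all arrays.

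Each array's description in the labels begins with a number whose leading digits several arrays share. There are 6 such leading numbers, 4 of them deficient and 2 control, and their meaning is not stated. The mean of the Y-linked probesets split the arrays by number without exception: it was above 3 in all arrays of 2 numbers and under 3 in all arrays of the other 4. If a number stands for 1 mouse, the arrays come from fewer animals than 14, and all p-values here measure the spread between arrays. The single Epas1 probeset, for the gene of HIF-2α, read 5.65 ± 0.51 in deficient and 5.84 ± 0.69 in control tumours (SD, n = 7 each), a difference of -0.19 (limma adjusted p = 0.807). Whether it lies in a deleted part of the gene is not given, so it does not check the labels. Markers of alveolar type II cells averaged 12.23 to 12.88 in deficient and 12.54 to 12.73 in control tumours, and Sftpc, the surfactant protein C gene, read 13.89 ± 0.15 and 13.85 ± 0.06 (deficient and control, SD, n = 7 each), values of lung tissue in both groups. Deficient 3 and 6 stood apart from the other deficient arrays in several marker lists. Their endothelial means were 5.13 and 5.30, against at least 6.87 in the other 5 deficient arrays, and their alveolar type I means were 8.57 and 8.79, against at least 10.07. Their ciliated means, 2.98 and 2.97, were also the lowest. Both arrays share 1 leading number, which no other array carries, so they may come from 1 mouse. Results without both arrays, which leave out that whole number, are given as an alternative chosen after the data were seen.

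The promoters of Tgfa, Btc and Egfr are shown because the groups differ in HIF-2α, whose dimers bind the core letters ACGTG or GCGTG. By the probeset that represents each gene, they are the 3 family genes with the widest differences after Ereg and Hbegf. The sequences are from the RefSeq promoter table of build GRCm38.p6, which gave none for Ereg, and Hbegf was left out of the search. Each line holds the 250 bases before the start of the gene, 5′ to 3′ on the gene's strand, and capitals mark the core letters on either strand.
Tgfa, chr6:86194972-86195221, + strand: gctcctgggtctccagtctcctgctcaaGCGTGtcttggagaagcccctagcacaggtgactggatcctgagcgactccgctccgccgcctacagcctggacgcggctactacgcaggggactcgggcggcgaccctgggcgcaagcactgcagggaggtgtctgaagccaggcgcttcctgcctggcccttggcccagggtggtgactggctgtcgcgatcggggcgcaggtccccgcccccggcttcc
Btc, chr5:91402995-91403244, - strand: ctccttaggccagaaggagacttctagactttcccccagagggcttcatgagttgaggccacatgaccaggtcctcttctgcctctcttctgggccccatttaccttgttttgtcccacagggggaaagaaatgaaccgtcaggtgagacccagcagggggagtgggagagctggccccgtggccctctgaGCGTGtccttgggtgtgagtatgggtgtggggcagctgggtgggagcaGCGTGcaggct
Egfr, chr11:16751953-16752202, + strand: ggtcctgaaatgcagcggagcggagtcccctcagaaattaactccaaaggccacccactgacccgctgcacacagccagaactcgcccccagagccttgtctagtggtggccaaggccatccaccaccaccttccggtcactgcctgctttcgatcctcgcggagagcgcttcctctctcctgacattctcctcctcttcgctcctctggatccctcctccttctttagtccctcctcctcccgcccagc
The core occurred 1 time before Tgfa, 2 times before Btc and 0 times before Egfr. Of all 32851 windows of this length in the table, 38.6% held it on either strand. The AP-1 letters TGANTCA, bound by FOS and JUN dimers downstream of ERK, did not overlap it, were in none of these 3 windows and were in 6.75% of all windows. Of the 2 windows listed for Errfi1, 1 held the HIF core 3 times and the other 0 times. A match is a description of letters and not a binding site.

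No member of the family passed the test, and the 4 probesets furthest on by unadjusted p were those of 2 ligands that read higher and 1 receptor that read lower in deficient tumours. Among all tested probesets 0.0394% passed, and 0 of the 11 family probesets did, with adjusted p-values of 0.153 to 0.972. At an unadjusted p under 0.05 stood 4 family probesets, 1 of Ereg, 2 of Hbegf and 1 of Egfr, beside 14.7% of all tested probesets. The groups overlapped in all 11 family probesets, and 0.496% of all tested probesets had groups that did not overlap. Of the 11, 4 were higher in deficient tumours, beside 52.6% of all tested probesets, and their median difference was -0.08, beside 0.02. Tgfa, Egfr and the dimmer Btc probeset passed the filter with only 7 to 9 arrays above 4, so these counts depend partly on the filter.

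**Figure D1:**
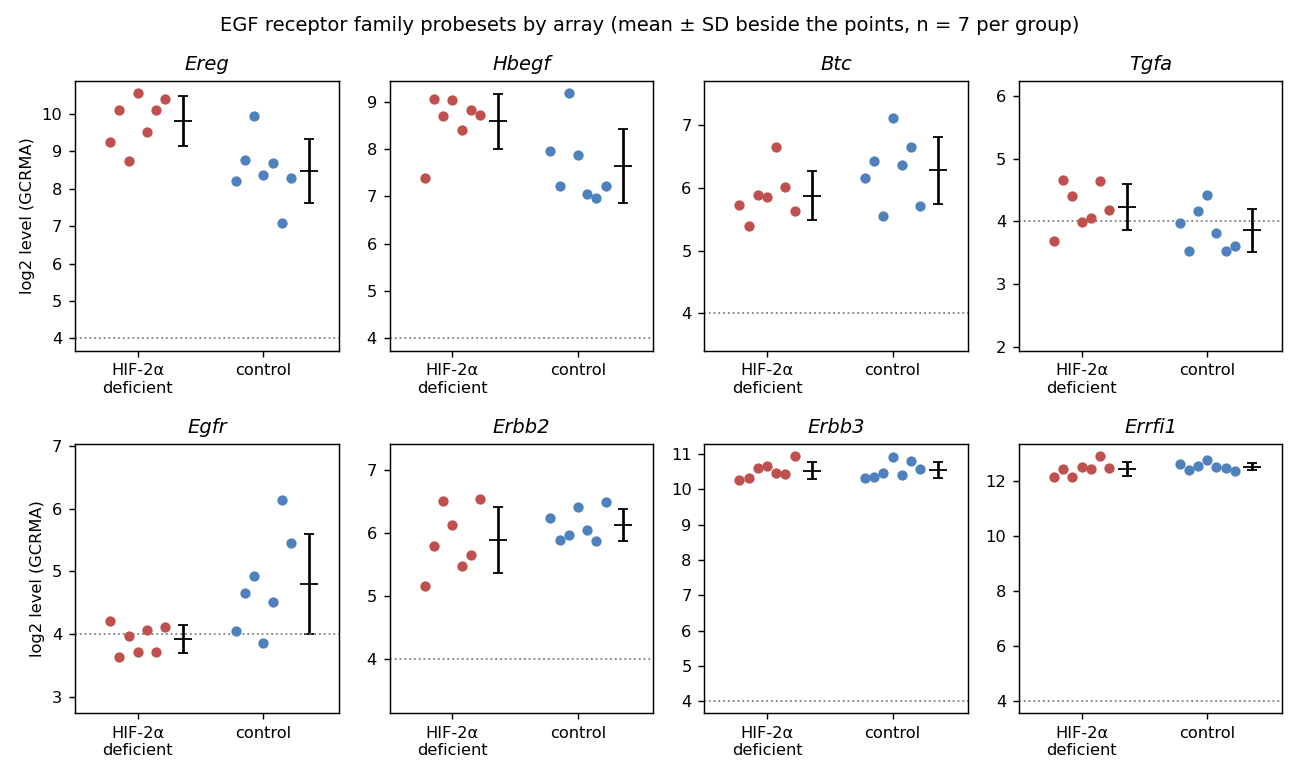
Log2 level (vertical axis, GCRMA) of the tested probeset that represents each gene, with 1 point per array, HIF-2α deficient left and control right, and the mean ± SD beside the points (n = 7 per group). The dotted line marks 4. All 7 deficient points of Ereg lie above the control mean of 8.47 and all 7 of Egfr lie below the control mean of 4.80, while the groups overlap in every panel.

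Epiregulin (Ereg) is a ligand of EGFR and ERBB4. Its level ran from 8.73 over a median of 10.10 to 10.54 in deficient tumours, against 7.08, 8.37 and 9.94 in control tumours. In 4 deficient tumours Ereg was above the highest control, and in 5 control tumours it was below the lowest deficient one. The means were 9.80 ± 0.66 in deficient and 8.47 ± 0.85 in control tumours (SD, n = 7 each), a difference of 1.33 (SE 0.38, 95% interval 0.53 to 2.13) or 2.51-fold. That did not pass over all probesets (limma adjusted p = 0.153, exact permutation p = 0.00758), and 2.01% of the tested probesets had a smaller p. By leading number, Ereg averaged 9.37, 9.42, 10.10 and 10.47 among deficient and 8.29 and 8.55 among control arrays, so the 4 deficient averages lay above both control averages. With the number as a random block the difference was 1.38 (limma adjusted p = 0.989), and its unadjusted limma p was 0.0248, against 0.00310 without the block. In that fit 0 of all 12701 tested probesets passed, and 600 had an unadjusted p under 0.05.

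Heparin-binding EGF-like growth factor (Hbegf) also binds EGFR and ERBB4. The brighter of its 2 probesets ran from 7.38 over 8.72 to 9.05 in deficient tumours, against 6.96, 7.23 and 9.17 in control tumours (lowest, median and highest). Most deficient arrays thus lay above most controls, with deficient 1 low and control 3 the highest of all 14. The means were 8.58 ± 0.58 in deficient and 7.64 ± 0.78 in control tumours, a difference of 0.95 (SE 0.34, 95% interval 0.22 to 1.68, limma adjusted p = 0.229, exact permutation p = 0.0280). The other Hbegf probeset read 6.52 ± 0.66 in deficient and 5.76 ± 0.66 in control tumours, a difference of 0.76 (SE 0.33, limma adjusted p = 0.308, exact permutation p = 0.0624). By leading number, the brighter probeset averaged 7.89, 8.75, 8.88 and 9.05 among deficient and 7.52 and 7.92 among control arrays, so 1 deficient average lay below 1 control average. With the number as a random block the difference was 0.92 (limma adjusted p = 0.989), and its unadjusted limma p was 0.0827, against 0.0142 without the block. Both probesets followed each other over the 14 arrays (Pearson r = 0.954).

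Transforming growth factor alpha (Tgfa) is an EGFR ligand, and 1 of its 3 probesets was above background in enough arrays to be tested. It ran from 3.69 over 4.18 to 4.66 in deficient tumours, against 3.52, 3.82 and 4.42 in control tumours. It was above 4 in 5 deficient and in 2 control arrays, so much of its range lies at the background. The difference was 0.37 (SE 0.18, 95% interval -0.02 to 0.76) and did not pass (limma adjusted p = 0.370).

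Betacellulin (Btc), a ligand of EGFR and ERBB4, lay on the other side. Its brighter probeset ran from 5.39 over 5.86 to 6.65 in deficient tumours, against 5.55, 6.36 and 7.11 in control tumours, and 6 of 7 deficient arrays were below the control mean. The difference was -0.40 (SE 0.24, 95% interval -0.91 to 0.11, limma adjusted p = 0.448). The dimmer Btc probeset differed by -0.21 (SE 0.29, adjusted p = 0.774). In the gene table, Epgn, Ereg, Areg and Btc are 4 protein-coding genes next to each other on chromosome 5, so the neighbours Ereg and Btc differed in opposite directions between the groups, neither past the threshold.

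Egf itself was at background. Its probeset read between 2.14 and 2.18 in control tumours and between 2.15 and 2.37 in 6 of the 7 deficient tumours. The remaining one, deficient 6, read 4.04, just above 4, and Egf was not tested.

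Egfr encodes the receptor that these ligands share. Of its 5 probesets 1 was measured above background, and it ran from 3.64 over 3.96 to 4.20 in deficient tumours, against 3.86, 4.66 and 6.13 in control tumours. In 5 control tumours it was above the highest deficient one, and only 3 of 7 deficient arrays against 6 of 7 control arrays were above 4. The means were 3.91 ± 0.22 in deficient and 4.80 ± 0.79 in control tumours, a difference of -0.88 (SE 0.29, 95% interval -1.50 to -0.26) that did not pass (limma adjusted p = 0.197, exact permutation p = 0.00932). Since most deficient values sit at the background, the size of this difference depends on where GCRMA places it. The 2 control arrays of 1 leading number averaged 3.95, within the deficient range, and the 5 of the other averaged 5.14. With the number as a random block the difference was -0.74 (limma adjusted p = 0.989), and its unadjusted limma p was 0.0692, against 0.00853 without the block.

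Erbb2 encodes the receptor that binds no ligand and pairs with the others. It ran from 5.15 over 5.80 to 6.55 in deficient tumours, against 5.88, 6.04 and 6.49 in control tumours. The deficient arrays thus spread wider, with 4 below the lowest control and 2 above the highest. The difference was -0.24 (SE 0.21, 95% interval -0.69 to 0.21, limma adjusted p = 0.637).

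Erbb3 encodes the receptor whose kinase is weak and which couples to PI3 kinase. Its measured probeset ran from 10.27 over 10.45 to 10.94 in deficient tumours, against 10.31, 10.47 and 10.91 in control tumours, nearly the same ranges. The difference was -0.02 (SE 0.13, 95% interval -0.29 to 0.26, limma adjusted p = 0.972), and its sign turned to 0.06 with each array centred on its median.

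Errfi1 encodes MIG6, which binds the EGFR kinase and blocks it. Its brighter probeset ran from 12.15 over 12.46 to 12.92 in deficient tumours, against 12.36, 12.53 and 12.77 in control tumours. The difference was -0.08 (SE 0.12, 95% interval -0.33 to 0.18, limma adjusted p = 0.806), and median centring turned its sign to 0.003. The dimmer Errfi1 probeset read 6.57 ± 1.05 in deficient and 7.10 ± 0.49 in control tumours, a difference of -0.53 (SE 0.40, adjusted p = 0.579), with deficient 1 lowest at 4.79 and deficient 6 highest at 8.12.

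**Figure D2:**
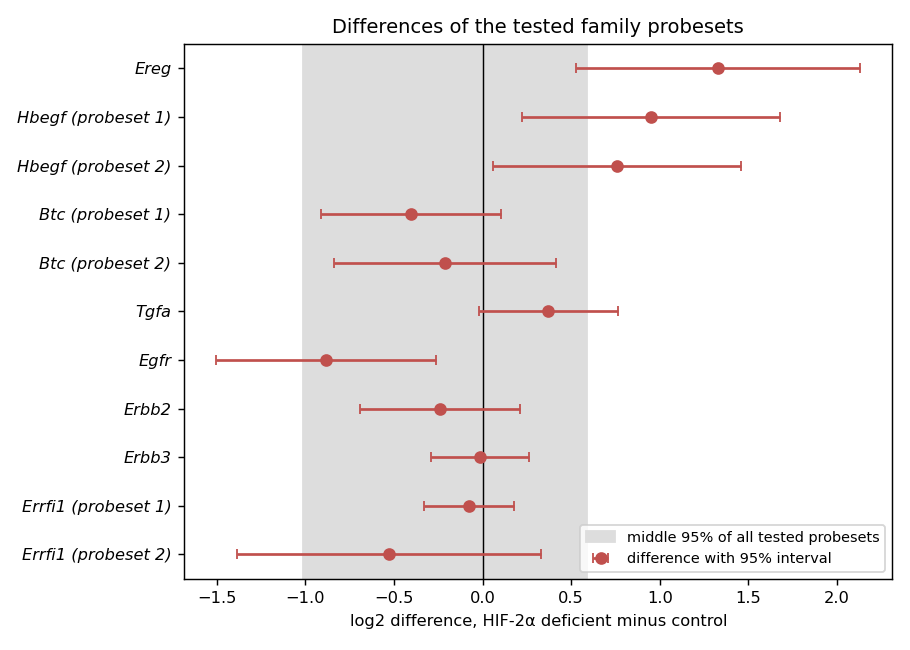
Log2 difference, HIF-2α deficient minus control (horizontal axis), of the 11 tested family probesets, with 95% intervals from limma. The grey band holds the middle 95% of the differences of all tested probesets, from -1.01 to 0.59. Intervals of Ereg and both Hbegf probesets lie above 0 and that of Egfr lies below 0, before adjustment for the number of probesets tested.

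Settings that weight the arrays changed these calls. With array weights estimated by limma, which give arrays that deviate more a smaller part in the fit, 5 family probesets passed, those of Ereg (1.45, limma adjusted p = 0.00911), Hbegf (1.43 and 1.18), Tgfa (0.56) and Egfr (-0.95). In the same fit 15% of all tested probesets passed, so the share called grew across the whole array. Without 1 array in turn the difference of Ereg ranged from 1.10 to 1.57 and that of Egfr from -1.04 to -0.66, and no family probeset passed in any of these 14 fits. Some differences that had not passed moved by more than 1.5 times. The dimmer Errfi1 probeset differed by -0.23 without deficient 1, against -0.53 with all arrays, and Erbb2 by -0.12 without deficient 1, against -0.24. The brighter Btc probeset differed by -0.27 without control 4, against -0.40, and the dimmer one ranged from -0.37 without deficient 5 to -0.06 without control 6, against -0.21. The differences of Erbb3 and of the brighter Errfi1 probeset, both near 0, also moved by more than this. Without both deficient 3 and deficient 6, 0 of the 11 family probesets passed, and the differences were 1.48 for Ereg, 0.88 for the brighter Hbegf probeset, 0.25 for Tgfa and -0.85 for Egfr. In that setting the dimmer Btc probeset differed by -0.12 and the dimmer Errfi1 probeset by -0.82.

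Members were then compared with each other within groups, as deviations of each array from its group mean. Across the 28 pairs of 8 genes, 0 passed after adjustment over the pairs. Hbegf and Tgfa had a Pearson r of 0.69 and a Spearman rho of 0.71 over 14 arrays (permutation p = 0.00626 and 0.00704, adjusted p = 0.113 and 0.0906). The r was 0.64 without control 3 and deficient 1, the arrays farthest out in Hbegf, and 0.71 within deficient and 0.70 within control tumours. Ereg and Hbegf had an r of 0.66 and a rho of 0.68 (permutation p = 0.0222 and 0.00917, adjusted p = 0.113 and 0.0906). That r was 0.34 without control 3 and control 6, the arrays farthest out in Ereg, and 0.55 within deficient and 0.73 within control tumours. Tgfa and Egfr went the opposite way, with an r of -0.59 and a rho of -0.67 (permutation p = 0.0192 and 0.0129, adjusted p = 0.113 and 0.0906), and -0.48 without control 4 and deficient 1. Other pairs reached the same adjusted p of 0.113 for r: Erbb2 and Erbb3 (0.63, permutation p = 0.0163), Egfr and Errfi1 (-0.46, p = 0.0156), and Tgfa and Errfi1 (0.61, p = 0.0241). Hbegf and Errfi1 had a rho of 0.66 (permutation p = 0.0121, adjusted p = 0.0906). Arrays with a shared leading number may not be independent, which these p-values do not take into account.

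Most markers of airway epithelium read lower in deficient tumours, although no single one passed the test, and in bulk tissue fewer cells of a type and less RNA per cell cannot be told apart. The mean level of 7 ciliated cell markers ran from 2.97 to 6.23 in deficient and from 4.82 to 8.24 in control tumours, with all 5 tested members lower and Dnah5 under 4 in every array. The mean of 12 markers of club and other airway secretory cells, called club markers below, ran from 7.53 to 9.03 in deficient tumours. In control tumours it ran from 8.56 to 11.82, and 10 of 11 tested members were lower in deficient tumours. The exception was Scgb1a1, at 13.84 ± 0.26 in deficient and 13.78 ± 0.05 in control tumours, a difference of 0.06 (limma adjusted p = 0.843). Differences of the other tested club markers ran from -0.56 for Cyp2f2 to -6.51 for Ltf. Within groups, Hbegf was lower in arrays with more ciliated marker signal, with a Pearson r of -0.83 and a Spearman rho of -0.78 over 14 arrays (permutation p = 0.00016 and 0.00213, adjusted p = 0.00256 and 0.0324 over 16 relations of 8 genes to 2 lists). That r was -0.71 without control 6 and deficient 1, the arrays farthest out in the markers, and was -0.82 within deficient and -0.85 within control tumours. For Tgfa the r was -0.78 and the rho -0.76 (permutation p = 0.00246 and 0.00405, adjusted p = 0.0197 and 0.0324), with -0.66 without the same arrays, -0.76 within deficient and -0.80 within control tumours. Tgfa was above 4 in only 7 of 14 arrays. In deficient tumours the means of Foxj1, Rsph1, Dnah5 and Tekt1 were under 4, and those of Tppp3, Lrrc23 and Spag6l above it. Deficient arrays of 1 leading number had close ciliated means: 6.23 and 5.57, 3.73 and 3.53, 2.98 and 2.97. Arrays with a shared number may not be independent, which the p-values of these relations do not take into account.

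Egfr tended the other way, with an r of 0.63 and a rho of 0.48 to the ciliated markers (permutation p = 0.0119 and 0.0927, adjusted p = 0.0634 and 0.247), and 0.45 without control 6 and deficient 1. Control 6 and control 7 held both the highest Egfr levels, 6.13 and 5.45, and the highest ciliated means, 8.24 and 7.74. For Ereg the r was -0.53 and the rho -0.52 (permutation p = 0.0604 and 0.0736, adjusted p = 0.205 and 0.235), and the r was -0.27 without those arrays. None of the 8 genes had an adjusted p under 0.05 against the club markers. The relations to the marker lists were chosen after the data were seen, and the part of airway tissue in the group differences of the family was not tested. Endothelial markers averaged 5.13 to 8.16 in deficient and 6.91 to 8.03 in control tumours, with all 10 tested members lower. The mean of that list differed by -0.64 with all arrays, by -0.35 without deficient 3, by -0.37 without deficient 6 and by 0.03 without both. Fibroblast markers averaged 7.20 to 9.24 and 8.84 to 9.73 (deficient and control), with 8 of 9 lower, and differed by -0.74 with all arrays and by -0.46 without both. Alveolar type I markers averaged 8.57 to 10.52 in deficient and 10.14 to 11.06 in control tumours, with 6 of 7 lower, and differed by -0.76 with all arrays and by -0.28 without both. Macrophage markers averaged 8.45 to 9.74 and 8.69 to 10.12 (deficient and control), with 8 of 10 lower. The ciliated and club means differed by -2.32 and -2.42 with all arrays and by -1.87 and -2.57 without both. The 3 erythroid markers found were under 4 in every array.

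**Figure D3:**
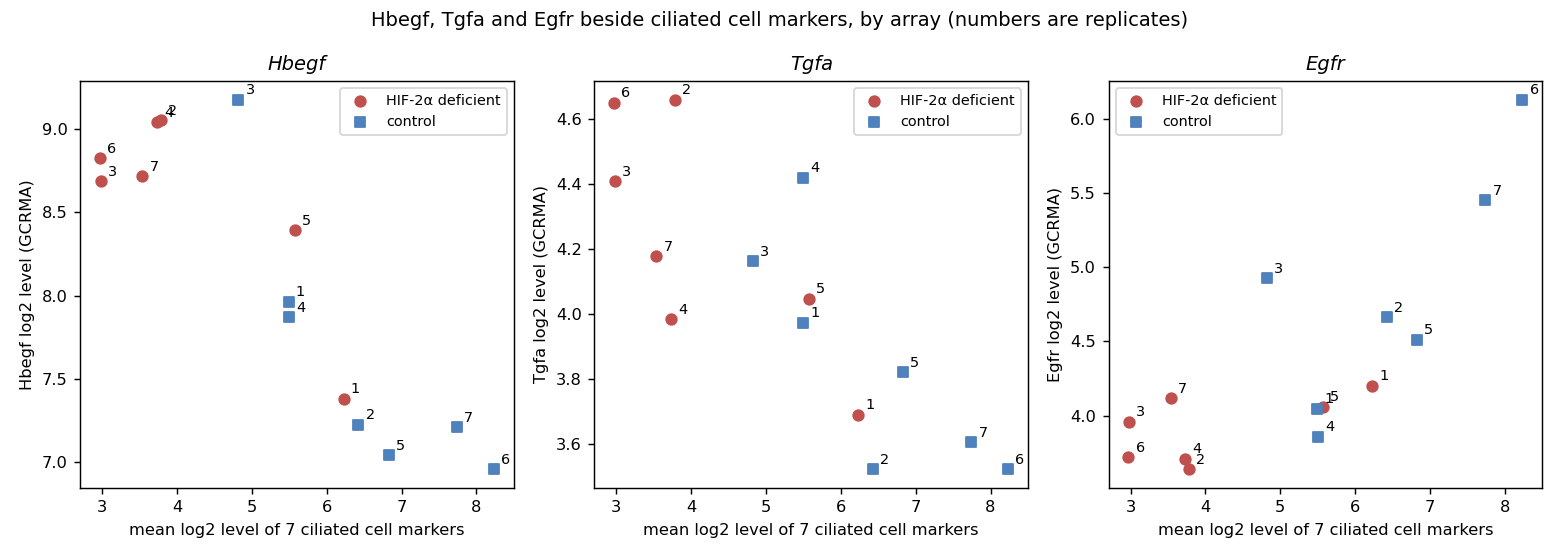
Log2 level of Hbegf, Tgfa and Egfr (vertical axes) against the mean log2 level of 7 ciliated cell markers (horizontal axis), with 1 point per array, numbered by replicate, for HIF-2α deficient tumours (circles) and control tumours (squares). Hbegf and Tgfa are lower in arrays with more ciliated signal, Egfr tends to be higher without passing (adjusted p = 0.0634 for r), and control 6 and control 7 stand at the right of each panel.

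The genes whose deviations most resembled those of a family member over the 14 arrays are given by their Pearson r. For Ereg they were Aif1 (0.85), Zdhhc20 (0.84) and Tnfsf9 (0.82), the last of which encodes a ligand of the TNF family and differed by 1.06 (SE 0.40, limma adjusted p = 0.252). For Egfr they were Ddhd2 (0.94), Ap3m2 (0.92) and Dynlt1f (0.91), whose own differences between the groups were 0.03, -0.19 and -0.16. For Errfi1 they were Ccl17 (0.85), Nus1 (0.84) and Ubfd1 (0.84). These are the highest values over all tested probesets with 1 gene symbol and carry no test.

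Other genes of the pathway were described from lists by role. Of 57 genes 49 had a single-symbol probeset and 36 were tested, 1 probeset a gene. Of these 0 passed the test, with adjusted p-values from 0.126, and 22 were higher and 14 lower in deficient tumours. At an unadjusted p under 0.05 stood 8 higher and 2 lower genes, beside 8.09% higher and 6.57% lower among all probesets tested. The median difference of the 36 was 0.10, beside 0.02 over all probesets. The lists were written with earlier results of these data known, which included several of the genes induced downstream.

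The other ligands and the remaining receptor were near background. Erbb4 read 2.18 ± 0.01 in deficient and 2.17 ± 0.01 in control tumours, and Nrg4, a ligand of ERBB4, read 2.44 ± 0.26 and 2.41 ± 0.22 (deficient and control, SD, n = 7 each). Epgn and Nrg3 were also under 4, so 0 of the 4 genes found in this list was tested.

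Of 5 tested genes of ligand shedding 0 passed. Adam10, which encodes the protease that releases Btc and Egf, read 10.87 ± 0.25 in deficient and 10.55 ± 0.12 in control tumours, a difference of 0.32 (SE 0.11, limma adjusted p = 0.223), and its other probeset differed by 0.37. Adam9 read 10.74 ± 0.22 in deficient and 10.42 ± 0.07 in control tumours, a difference of 0.32 (SE 0.10, adjusted p = 0.189). Adam17, which encodes the protease that releases Ereg, Areg, Hbegf and Tgfa, differed by 0.03 (SE 0.13, adjusted p = 0.931).

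Adaptors next to the receptors likewise gave 0 calls among 8 tested genes. Nck1, an SH2 and SH3 adaptor gene, differed by -0.40 (SE 0.12, limma adjusted p = 0.167), and its other probeset by 0.25. Pik3r1, the regulatory subunit of PI3 kinase, differed by -0.32 (SE 0.17, adjusted p = 0.399), with 0.11 in its other probeset, and Ptpn11, which encodes the phosphatase SHP2, by 0.09 (SE 0.12). Of 11 tested genes of receptor uptake, sorting and degradation 0 passed. The endocytic adaptor gene Eps15 differed by 0.35 (SE 0.14, adjusted p = 0.288), with -0.06 in its other probeset, and the phosphatase gene Ptpn1 by -0.46 (SE 0.18, adjusted p = 0.260), with -0.42 in its other probeset.

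Genes known to be induced by ERK downstream of the receptors were higher in 10 of 12 tested cases, beside 52.6% of all tested probesets, and 0 passed. At an unadjusted p under 0.05 stood 5 of the 12, all higher, beside 8.09% higher among all tested probesets. The list was written with earlier results of these data known. Some differences in the list were small beside their SE: 0.03 (SE 0.39) for Etv5, 0.11 (SE 0.51) for Myc and 0.18 (SE 0.39) for Fos. These were named after their values were seen, and the other Etv5 probeset differed by -0.38. Ereg, Hbegf and Errfi1 are also induced by ERK but are outside this list, and Ereg and Hbegf read higher and Errfi1 lower. Spry2, a feedback inhibitor of receptor tyrosine kinase signalling, ran from 11.01 over 11.52 to 11.74 in deficient tumours, against 10.64, 10.85 and 11.13 in control tumours. Its difference was 0.56 (SE 0.13, limma adjusted p = 0.126). Spry2 passed without deficient 3 and 6 (0.70, adjusted p = 0.0306), the arrays with the lowest endothelial, alveolar type I and ciliated marker means. Those arrays are also the only ones of 1 leading number. Without them 0.252% of all tested probesets passed, against 0.0394% with all arrays, so the share called grew across the whole array. The early response gene Egr1 differed by 0.55 (SE 0.20, adjusted p = 0.228). Dusp6 differed by 0.55 (SE 0.20, adjusted p = 0.240) and Spry1 by 0.60 (SE 0.25, adjusted p = 0.291), both named after their values were seen. The cyclin D1 gene Ccnd1 differed by 0.24 (SE 0.10, adjusted p = 0.289), and its other probesets by 0.79 and 0.65 (adjusted p = 0.116 and 0.111). Not all members of the list leaned this way: Ier3 differed by -0.38 (SE 0.24) and Plaur by -0.10 (SE 0.26), both named after their values were seen.

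**Figure D4:**
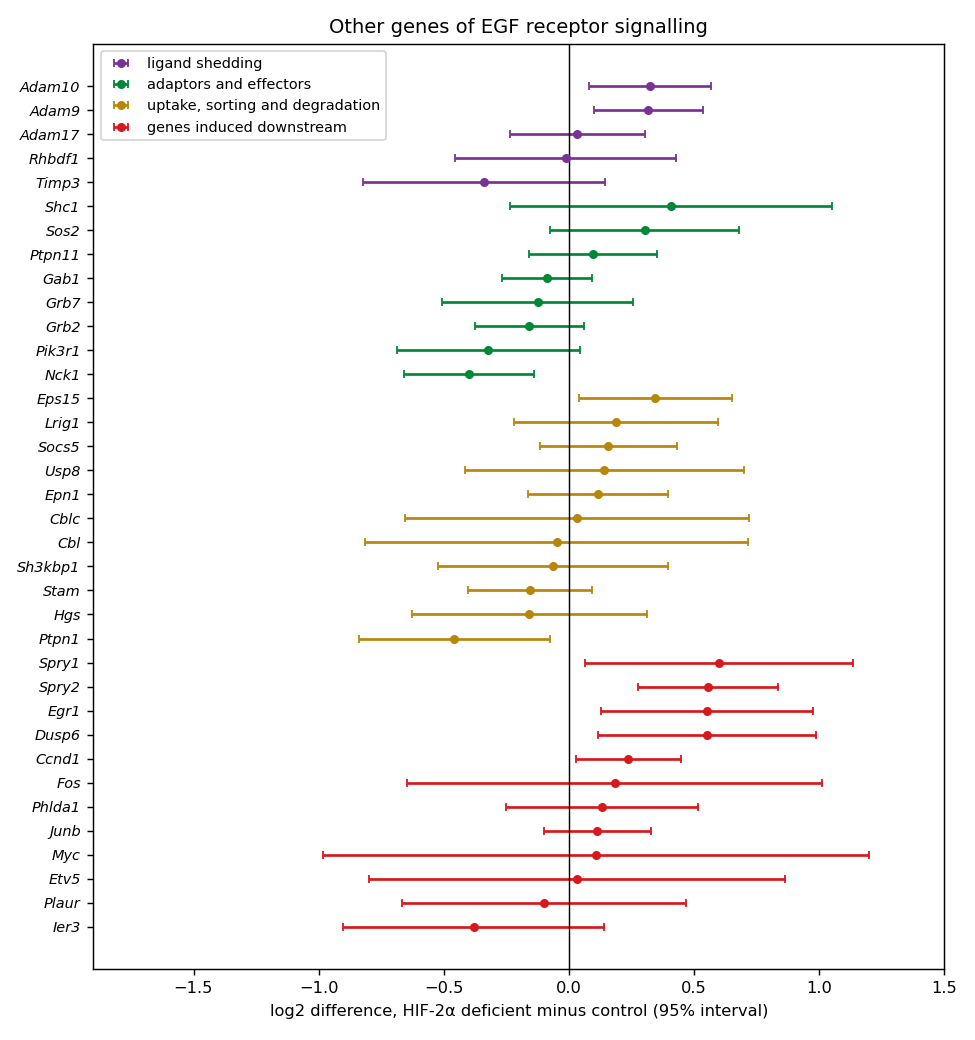
Log2 difference, HIF-2α deficient minus control (horizontal axis), with 95% intervals from limma, of the 36 tested genes of EGF receptor signalling, coloured by role. Of the 12 genes induced downstream 10 lie above 0, and the genes of the other roles lie on both sides.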

How the data were processed

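Total RNA of 14 tumour samples was hybridised to Affymetrix mouse arrays as biotin-labelled cRNA, per the labels' protocols. The deposited values are log2 probeset levels that the authors made with GCRMA, per the submitters' processing notes; no version is named. Of 22690 probesets, 64 were controls, 20380 had 1 gene symbol in the platform annotation, 691 several and 1555 none. Groups came from the sample titles. The test was limma's moderated comparison (version 3.58.1 under R 4.3.3, two-sided), checked first on simulated data. Tested were the 12701 non-control probesets above 4 in at least 7 arrays. Exact permutation tests ran over all 3432 splits into 7 and 7. Correlations used deviations from group means and 100000 permutations within groups. A gene with several probesets is represented by its brightest on average. The rule for named genes took all family probesets, and from each pathway list the brightest member and the 2 of smallest p, plus Erbb4. It also took the 3 genes most like Ereg, Egfr and Errfi1. Adam17, Dusp6, Spry1, Etv5, Myc, Fos, Ier3 and Plaur were named outside the rule, after their values were seen. Array numbers limit the precision. The family, lists and tests were chosen with earlier results of these data known. Alternatives covered filters, scaling, variance model, array weights, leading and replicate numbers, Y-linked signal, RNA quality, threshold and single arrays left out.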

Additional observations from a re-analysis of the deposited data

Results flagged for a closer look

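In deficient 1 the brighter Hbegf probeset read 7.38, apart from the other 6 deficient tumours. In deficient 6 the Egf probeset read 4.04, while the other deficient tumours were at background. Both stood further from the nearest array of their group than Dixon's 95% limit for 7 values allows. Among 24 groups of values examined, chance flags about 1 in 20.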

How the results depend on the processing

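The count of family probesets past the threshold was 0 in the main setting and in every alternative run except array weights, which gave 5; it was 0 at an adjusted p under 0.10 as well. The count of pathway genes was also 0, except that array weights gave 10 and leaving out both deficient 3 and deficient 6 gave 1; that last setting was added once the data had been seen. Array weights gave 1900 calls over all probesets against 5 in the main setting, and the cause was not tested. Without both deficient 3 and deficient 6 there were 32 calls over all probesets. Without filter, with a random block for the leading number, with arrays averaged over that number or without variance moderation, 0 of all probesets passed, with 2253, 600, 371 and 1842 at an unadjusted p under 0.05. Without 1 array in turn the calls over all probesets ranged from 0 to 85, the highest without control 4. With the replicate number as a block the family count was 0 and 2 of all probesets passed. Same-numbered arrays of the groups correlated at -0.226 to 0.223, 0 of 7 best with their own number. No pairing by number was thus visible in these values, which cannot show that none exists. Erbb3 changed sign to 0.064 with median centring and 0.070 with array weights, and ranged from -0.084 to 0.045 without 1 array in turn. The brighter Errfi1 probeset changed sign to 0.003 with median centring and 0.036 with array weights. The other 9 tested family probesets kept their sign in all alternatives run. The dimmer Btc probeset, Tgfa and Egfr gave no value with a filter at 5.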
